A study of Caenorhabditis elegans with 2 samples.

Results

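The glycolytic enzyme genes described here are 10 genes of the nematode Caenorhabditis elegans, chosen by name from the Ensembl WBcel235 annotation. They encode glycolytic enzymes from aldolase to pyruvate kinase: 2 aldolases (aldo-1 and aldo-2), 4 glyceraldehyde-3-phosphate dehydrogenases (gpd-1, gpd-2, gpd-3 and gpd-4), a phosphoglycerate kinase (pgk-1), an enolase (enol-1) and 2 pyruvate kinases (pyk-1 and pyk-2). All 10 were found among 19973 protein-coding genes on the 6 nuclear chromosomes. Glycolysis splits glucose into pyruvate and yields ATP and NADH. Aldolase cuts the 6-carbon sugar into 3-carbon units, the dehydrogenase oxidises them, and the kinases pass phosphate to ADP. Pyruvate then enters the mitochondrion, where pyruvate dehydrogenase feeds the tricarboxylic acid cycle.

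The measurement was chromatin immunoprecipitation with sequencing (ChIP-seq), which recovers DNA bound by a protein. The protein was F13C5.2, a bromodomain protein, fused to eGFP with a C-terminal GFP-FLAG tag according to the labels. Bromodomains are modules that bind acetylated lysine. The single group was strain OP605, which carries unc-119(tm4063) on chromosome III and the transgene wgIs605, sampled as mixed-sex early embryos 1 hour after synchronization by egg bleaching and precipitated with an anti-GFP antibody. There were 2 biological replicates, numbered 2 and 3, and no second condition. The strain is 1 transgenic line, so the tagged protein comes from the transgene, and whole embryos were used, so sites of different cells are mixed. No expression was measured.

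The deposited ce11 lists hold 30000 ranked peaks for replicate 2, 30000 for replicate 3 and 30000 for their pooled reads. They also include an optimal list from the irreproducible discovery rate (IDR) procedure, which takes into account how well replicates match. That list holds 1850 peaks, the 1850 of highest signal in the pooled list. Signal is the authors' score for each peak, its scale is unknown here, and rank 1 is the highest signal in a list. The signal of the IDR peaks ran from 77.9 to 611, with a median of 107.4. Presence in the IDR list was thus the same as a high pooled signal, and did not require a summit within 100 bp in each replicate. The IDR summits near rbr-2 and at aco-2, described below, had no counterpart within 100 bp in replicate 2. Only summits were matched, and overlap of peaks between replicates was not examined. A gene without an IDR promoter summit is one where no pooled promoter summit was among those 1850. In the whole pooled list the lowest signal was 17.5 and the median was 27.3. That list is labelled as peaks and background for the IDR procedure, so a low entry in it need not be a bound site. Read depth is unknown from these lists, so low ranks have no depth behind them that could be stated. As a check of the target, the F13C5.2 gene itself had an IDR summit 366 bp upstream of its 5′ end, with a signal of 355 and IDR rank 22, and the transgene's own copy of that sequence cannot be told apart from the native gene in it.

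No glycolytic enzyme gene had an IDR summit at its promoter. Every 5′ end of a coding transcript in the annotation was given a promoter window of 1000 bp before it and 200 bp after it. A gene was counted when a summit, the position of highest signal in a peak, fell inside any of its windows. The count was 0 of 10 glycolytic genes, against 8.51% (1700) of all protein-coding genes. A count of 0 in 10 allows a share of up to 30%, and the 95% Wilson interval ran from 0% to 27.8%. The genome-wide share lies inside that range, so a depletion was not detectable with 10 genes. The 10 genes are not 10 independent sites, because gpd-2 and gpd-3 adjoin each other, and gpd-1 and gpd-4, though far apart, share most of their coding sequence.

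Weaker summits, which may be background, were listed at most of the genes. The −log10 q-value is the authors' measure of confidence. At the members' best pooled summits it ran from 0.207 (pgk-1) to 1.58 (pyk-1), and the lowest value in the IDR list was 3.05. In the single-replicate lists the members' values ran from 0.0511 to 2.06, both at enol-1. In the pooled list 5 of 10 glycolytic genes (gpd-2, pgk-1, enol-1, pyk-1 and aldo-2) had a promoter summit, against 39.2% of all protein-coding genes. In the replicate 2 list it was 7 of 10, with gpd-4 and aldo-1 added, against 41.1% of all genes. In the replicate 3 list it was 6 of 10, the pooled 5 and aldo-1, against 39.6%. These 6 genes had a summit in both replicate lists, against 28.6% of all genes. Only pyk-1 had summits of the replicates within 100 bp of each other, 1 of 10, against 18.9% of all genes. The genes gpd-1, gpd-3 and pyk-2 had no promoter summit in any list. The pooled and single-replicate shares of the glycolytic genes thus lay near or above the shares of all genes, and the share with closely placed replicate summits lay below it, each from counts of 10 or fewer.

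**Figure D1:**
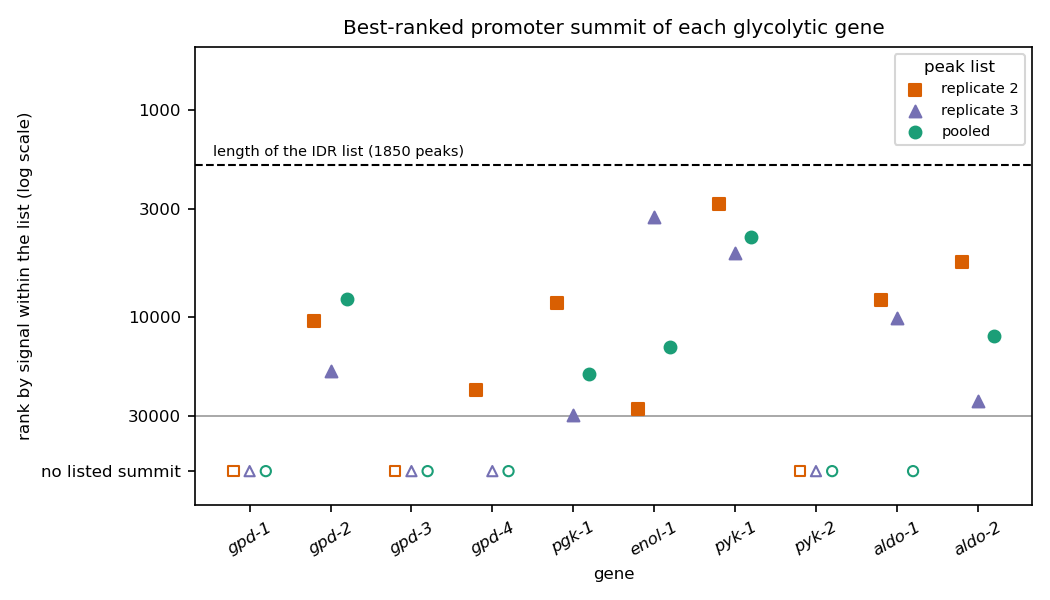
Rank by signal of the best promoter summit of each glycolytic gene (vertical axis, log scale, best rank at the top) in the replicate 2, replicate 3 and pooled lists, with open symbols where a list holds no summit. Every filled symbol lies below the dashed line at rank 1850, the length of the IDR list, and the nearest to it is pyk-1 in replicate 2 at rank 2860.

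The signals of these pooled summits were low. The highest promoter signal per gene was 50.8 at pyk-1, 36.3 at gpd-2, 30.1 at aldo-2, 28.4 at enol-1 and 24.1 at pgk-1. Their median was 30.1, against a median of 39.4 over the 7827 protein-coding genes that had a pooled promoter summit. The lowest IDR peak had 1.53 times the signal of the pyk-1 summit. In the plot of ranks the best summits of replicates 2 and 3 often stood far apart for the same gene, as at enol-1 and aldo-2. No tests were made of these shares or signals, since the series has 1 group and the genes were chosen by name.

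The aldolase genes both lie on chromosome III, and each had a summit in both replicate lists. Aldolase cleaves fructose-1,6-bisphosphate. The aldo-2 gene (WBGene00017166, III:5874673-5876625, minus strand) had its pooled summit 13 bp downstream of its outer 5′ end, in an intron of the gene, with a signal of 30.1 and rank 12272. The replicate 2 summit lay 5 bp upstream of that end at rank 5419, and the replicate 3 summit 137 bp upstream at rank 25295. The replicates therefore placed it 132 bp apart and at very different ranks. The −log10 q-value, the authors' measure of confidence, was 0.876 in replicate 2 and 0.122 in replicate 3. At the pooled aldo-2 summit it was 0.385, and no peak in the IDR list had a value below 3.05. The aldo-1 gene (WBGene00011474, III:13563346-13564937, minus strand) had a replicate 2 summit 550 bp upstream at rank 8218 and a replicate 3 summit 166 bp upstream at rank 10125. These summits were 384 bp apart, and the pooled list held none in the promoter of aldo-1. The ranks of aldo-1 were thus closer to each other than those of aldo-2, but the positions were not.

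The 2 aldolase genes differ in sequence, which is shown here because the promoters of these paralogs had weak summits at different places. Their coding sequences were 67.0% identical over 1095 and 1098 bases, and the 250 bases upstream were 44.0% identical. The 200 bases upstream of each gene's outermost 5′ end are printed 5′ to 3′ on the minus strand, chrIII:13564938-13565137 for aldo-1 and chrIII:5876626-5876825 for aldo-2, from the RefSeq genome sequence of WBcel235 (ce11). Capitals mark matches, on either strand, to the motifs searched (the hypoxia response core ACGTG, the E-box CACGTG, the TATA box TATAAA and the repeat GAGAGA) and a CAG that ends at the last base.
aldo-1 upstream: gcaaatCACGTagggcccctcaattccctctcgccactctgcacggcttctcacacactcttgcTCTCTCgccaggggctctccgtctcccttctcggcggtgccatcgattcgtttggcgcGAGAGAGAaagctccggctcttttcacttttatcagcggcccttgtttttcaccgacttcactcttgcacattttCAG
aldo-2 upstream: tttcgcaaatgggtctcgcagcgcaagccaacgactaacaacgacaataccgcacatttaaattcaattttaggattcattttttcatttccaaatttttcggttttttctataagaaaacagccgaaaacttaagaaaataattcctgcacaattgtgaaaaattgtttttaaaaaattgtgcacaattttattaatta
The aldo-1 stretch is rich in GC, at 55.5%, and holds a CACGT, which is ACGTG on the other strand, and GAGAGA on both strands. The aldo-2 stretch has a GC content of 30%, runs of A and T, and none of these motifs. The replicate 3 summit of aldo-1 and that of aldo-2 lie within the stretches printed.

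The dehydrogenase genes form a tandem pair and a dispersed pair. In C. elegans, gpd-2 and gpd-3 are known as the main body wall muscle isoenzymes and are transcribed in an operon that starts with mai-1, a gene for a homologue of the mitochondrial ATPase inhibitor. The genes gpd-1 and gpd-4 are known for an isoenzyme found in embryos. On chromosome X the order on the minus strand was mai-1, gpd-2 (WBGene00001684, X:3113443-3114689) and gpd-3 (WBGene00001685, X:3112091-3113341). The annotations of mai-1 and gpd-2 overlap by 22 bp, and 101 bp separate gpd-2 from gpd-3. On chromosome II gpd-1 (WBGene00001683, II:10394129-10395349) and gpd-4 (WBGene00001686, II:10171268-10172498) lie apart on the plus strand.

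Of these 4 genes only gpd-2 had a pooled promoter summit, and the IDR peak of its operon lay at the operon's start. The gpd-2 summit was 249 bp upstream of its 5′ end in the pooled list, with a signal of 36.3 and rank 8198, inside the 3′ UTR of mai-1. In replicate 2 it was 281 bp upstream at rank 10385. In replicate 3 it was 503 bp upstream at rank 18148, in an intron of mai-1, and the nearest annotated 5′ end there was that of mai-1 and not of gpd-2. The IDR summit at X:3116304 lay in the 5′ UTR of mai-1, 285 bp downstream of its 5′ end, with a signal of 93.8 and IDR rank 1285. A summit within 100 bp of it had rank 1843 in replicate 2 and rank 1140 in replicate 3. It was the nearest IDR summit both to gpd-2, at 1615 bp upstream, and to gpd-3, at 2963 bp upstream. No list held a summit in the gpd-3 window, which spans the gap and part of gpd-2.

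The dispersed pair also had no IDR summit in its windows. For gpd-4 the only listed summit was in replicate 2, 311 bp upstream, with a signal of 12.7 and rank 22490, where the lowest signal of that list was 10.5. For gpd-1 there was none. An IDR summit lay 1687 bp upstream of gpd-4, outside its window, with a signal of 144.7 and IDR rank 416. The nearest 5′ end to it was that of daf-19, which encodes an RFX transcription factor of ciliated neurons, 235 bp away on the opposite strand. Summits there had rank 802 in replicate 2 and rank 353 in replicate 3. The nearest IDR summit to gpd-1 was 5852 bp upstream, with a signal of 200.5 and IDR rank 166, and 2877 bp upstream of the next gene, T09F3.2. With the window widened to 2000 bp upstream and 500 bp downstream, gpd-2 and gpd-4 were counted, 2 of 10 glycolytic genes, against 11.2% of all genes. Both of these summits had a closer 5′ end, that of mai-1 or daf-19.

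The 4 genes share much of their sequence. The coding sequences of gpd-1 and gpd-4 were 99.0% identical over 1023 bases, and those of gpd-2 and gpd-3 were 97.4% identical. Between the pairs the identity ran from 78.9% (gpd-1 and gpd-3) to 79.5% (gpd-2 and gpd-4). The 250 bases upstream were 73.7% identical between gpd-1 and gpd-4 and 52.4% between gpd-2 and gpd-3. In the promoter windows, the share of 36-base stretches that occur once in the genome was 65.1% for gpd-3, 82.8% for gpd-4, 84.7% for gpd-1 and 93.8% for gpd-2, against a median of 100% and a lower quartile of 97.9% over all genes. It was also below that quartile at pgk-1 (87.2%) and pyk-1 (92.8%), both of which had pooled summits, and it was 100% at enol-1, aldo-1 and aldo-2. With 50-base stretches it was 74.2% for gpd-3 and 87.2% for gpd-4. In the gene bodies of gpd-1 and gpd-4 it was 34.4% and 34.9% with 36 bases. Neither the read length nor the treatment of reads that map to several places is stated in the sources used here. The part of this repetition in the absence of summits at gpd-1 and gpd-3 was not tested. At pyk-2, which also had no summit, the unique share with 36 bases was 100%.

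The sequences show how alike the dispersed pair is and what separates the tandem pair. The 200 bases upstream of gpd-1 (chrII:10393929-10394128) and gpd-4 (chrII:10171068-10171267) are on the plus strand, the gap between gpd-2 and gpd-3 (chrX:3113342-3113442) is on the minus strand, and the 101 bases centred on the IDR summit near daf-19 (chrII:10169531-10169631) are on the plus strand, all from RefSeq's WBcel235 (ce11) sequence with capitals as before.
gpd-1 upstream: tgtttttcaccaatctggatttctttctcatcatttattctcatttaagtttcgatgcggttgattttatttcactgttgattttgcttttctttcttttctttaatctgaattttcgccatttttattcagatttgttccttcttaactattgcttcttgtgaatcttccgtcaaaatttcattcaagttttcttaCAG
gpd-4 upstream: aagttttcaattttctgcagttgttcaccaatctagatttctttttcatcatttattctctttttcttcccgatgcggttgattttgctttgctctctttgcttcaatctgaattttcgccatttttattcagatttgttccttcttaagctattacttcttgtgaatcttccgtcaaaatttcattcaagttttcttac
gpd-2 to gpd-3 gap: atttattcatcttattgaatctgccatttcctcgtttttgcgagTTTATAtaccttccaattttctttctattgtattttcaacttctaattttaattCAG
daf-19 summit: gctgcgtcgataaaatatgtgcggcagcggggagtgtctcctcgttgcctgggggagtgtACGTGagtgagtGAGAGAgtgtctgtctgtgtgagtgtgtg
The gpd-1 and gpd-4 stretches held none of the searched motifs. The gap is 26.7% GC, holds TATAAA on the other strand and ends in CAG, and the summit near daf-19 is 56.4% GC and holds ACGTG and GAGAGA.

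The enolase gene enol-1 (WBGene00011884, II:8930997-8933799, plus strand) had its best summits inside the gene. Enolase makes phosphoenolpyruvate. The gene has 3 annotated 5′ ends, the innermost at position 8932106. The pooled summit lay 265 bp upstream of that end, in an intron of enol-1, with a signal of 28.4 and rank 13863. In replicate 3 the summit was 363 bp upstream of the same end with a signal of 34.8, rank 3291 and a −log10 q-value of 2.06. In replicate 2 it was 133 bp upstream with a signal of 11.1, rank 27561 and a −log10 q-value of 0.0511. Replicate 3 thus held the gene's best-ranked summit, and replicate 2 held one close to the bottom of its list, 230 bp away. A second, weaker summit 883 bp upstream of the outer end in the pooled list, rank 28111, lay in a coding exon of mrpl-50, a mitochondrial ribosomal protein gene that ends 56 bp before enol-1. With only the outermost 5′ end of each gene, that summit was the one left for enol-1. The nearest IDR summit was 37371 bp away, 144 bp upstream of szy-20.

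The 101 bases centred on the internal pooled summit (chrII:8931791-8931891, plus strand, RefSeq's WBcel235 sequence) are shown. This summit lay inside the gene, 265 bp upstream of an inner 5′ end, and not at the start of the gene. The replicate 2 summit, 133 bp upstream of that end, and the replicate 3 summit, 363 bp upstream, both lay outside the printed stretch. Capitals mark ACGTG.
enol-1 internal summit: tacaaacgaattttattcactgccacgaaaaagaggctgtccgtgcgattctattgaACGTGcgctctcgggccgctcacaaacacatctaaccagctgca
This stretch is 48.5% GC, against 29.7% in the promoter stretch from 250 bases before to 50 after the outermost 5′ end of enol-1.

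Among the kinase genes, pyk-1 had the highest signal of any member in the pooled and replicate 2 lists, pgk-1 had the lowest best signal of the 5 members in the pooled list, and pyk-2 had no summit. In replicate 3 the highest signal of any member was at enol-1. Phosphoglycerate kinase and pyruvate kinase each transfer a phosphate to ADP. The pyk-1 gene (WBGene00009126, I:9168432-9177488, plus strand) has 5 annotated 5′ ends, the most of any member, and so had more windows to hold a summit. The pooled list held 4 summits in them. The strongest lay 842 bp upstream of the outermost end with a signal of 50.8, rank 4095 and a −log10 q-value of 1.58. The others had signals of 30.8, 26.6 and 24.5, and 2 of these were in introns of pyk-1. In replicate 2 the strongest summit was at another place, 142 bp upstream, with a signal of 32.3 and rank 2860. Replicate 2 also had a summit 840 bp upstream at rank 6128. In replicate 3 the strongest was 854 bp upstream with a signal of 29.4 and rank 4882. The closest pair of replicate summits at pyk-1 was 14 bp apart, at the upstream site, although the strongest of each replicate were 712 bp apart.

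The pyk-2 gene (WBGene00014001, IV:10909913-10913078, plus strand) had no promoter summit in any list, and only 2 pooled summits lay within 10 kb of its outermost 5′ end, against 7 to 15 for the other 9 members. Its nearest IDR summit was 9283 bp away, 612 bp upstream of rbr-2, which encodes a histone H3 lysine demethylase. That summit had a signal of 108.5 and a counterpart within 100 bp in replicate 3 (rank 450) but not in replicate 2. The pgk-1 gene (WBGene00020185, I:3867541-3869109, plus strand) had a pooled summit 497 bp upstream with a signal of 24.1 and rank 18743. Its replicate 2 summit was 556 bp upstream at rank 8510, and its replicate 3 summit was 165 bp upstream at rank 29396, near the end of that list. The 2 summits of pgk-1 were 391 bp apart.

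The IDR peaks nearest to the glycolytic genes lay outside their promoter windows. The 10 members had a median distance of 5864 bp from a 5′ end to the nearest IDR summit, from 1615 bp (gpd-2) to 78793 bp (aldo-1), against a median of 19778 bp over all genes. An IDR summit lay within 10 kb of 7 of 10 members, against 32.6% of all genes, with gpd-2 and gpd-3 counted on the same summit. The members beyond 10 kb were aldo-1, aldo-2 (20453 bp) and enol-1. Of the 18 distinct genes that flank a member and are not members, 3 (16.7%) had an IDR promoter summit, against 8.51% of all genes. They were mai-1, daf-19 and eef-2. The eef-2 gene, for translation elongation factor 2, ends 1479 bp before pyk-1, and its IDR summit lay 6 bp downstream of its 5′ end with a signal of 178.7 and IDR rank 233. Summits there had rank 181 in replicate 2 and rank 435 in replicate 3. That summit was the nearest to pyk-1, at 4895 bp upstream. For pgk-1 the nearest was 5876 bp upstream, in an intron of guk-1, a guanylate kinase gene, with a signal of 94.6 and IDR rank 1264.

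**Figure D2:**
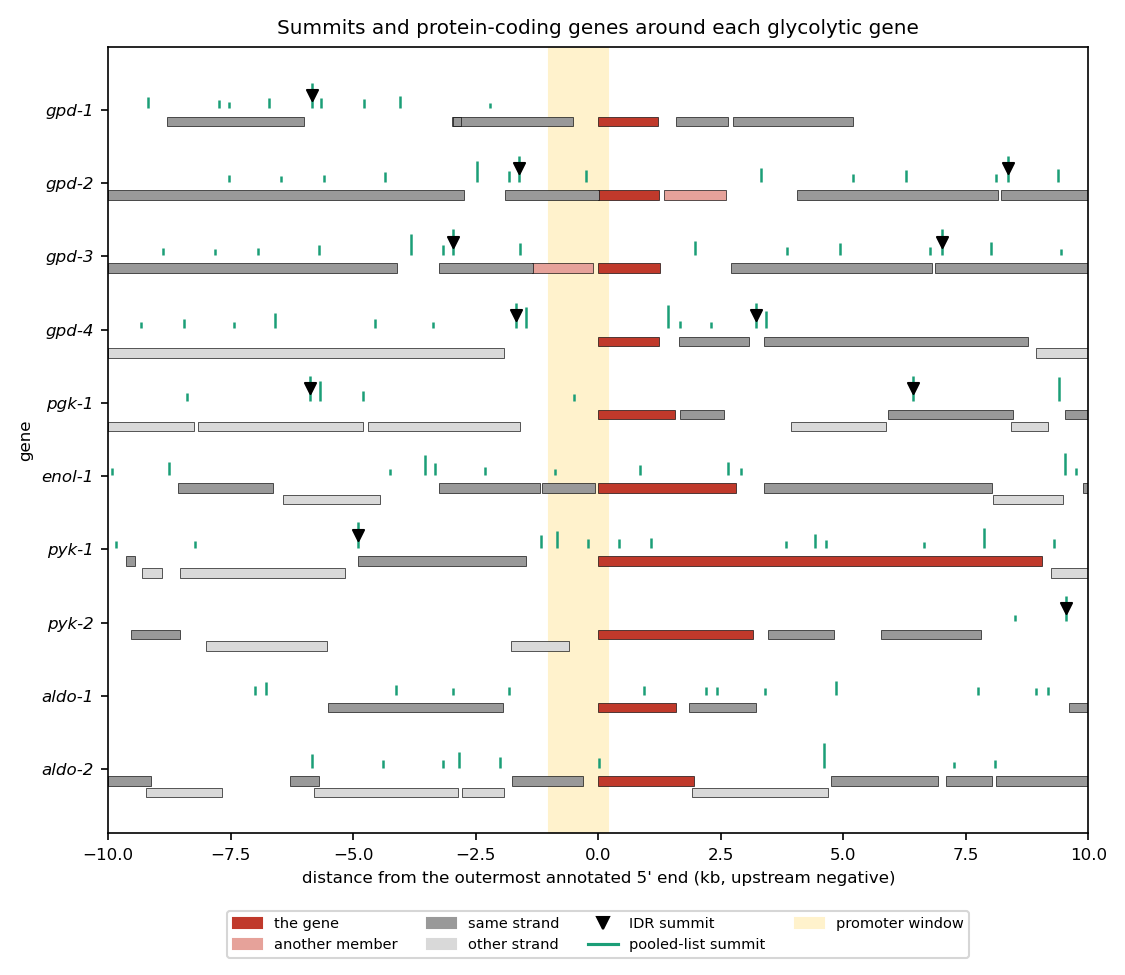
Summits and protein-coding genes within 10 kb of the outermost annotated 5′ end of each glycolytic gene (horizontal axis, kb, upstream to the left). Triangles are IDR summits, ticks are pooled-list summits, and the shaded band is the promoter window of that end only. Tick height follows signal up to 77.9, the lowest IDR signal, and is the same for all higher signals. No triangle lies in a band, and the nearest stand 1615 bp upstream of gpd-2 and 1687 bp upstream of gpd-4.

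The remaining flanking genes had no IDR promoter summit. They were T09F3.2 and T09F3.4 beside gpd-1, gpcp-1 beside gpd-3, wbp-11 beside gpd-4, hcp-4 and coq-4 beside pgk-1, mrpl-50 and T21B10.3 beside enol-1, F25H5.8 beside pyk-1, ZK596.2 and ZK593.2 beside pyk-2, exc-12 and T05D4.2 beside aldo-1, and mig-21 and F01F1.3 beside aldo-2. At aldo-1 the nearest IDR summit was 160 bp upstream of drr-2, and at aldo-2 it was 1 bp upstream of alh-9, an aldehyde dehydrogenase gene. No small RNA gene lay within 500 bp of any summit at a glycolytic promoter.

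Other genes of carbon metabolism did have IDR promoter summits. Of the other glycolytic steps (hexokinase, glucose-phosphate isomerase, phosphofructokinase, triosephosphate isomerase, phosphoglycerate mutase and lactate dehydrogenase), 1 of 9 genes (11.1%, 95% Wilson interval 1.99% to 43.5%) was counted. It was hxk-2, which encodes a hexokinase, with a signal of 189 and IDR rank 195. Summits there ranked 140 in replicate 2 and 425 in replicate 3. The nearest 5′ end to that summit was that of cdk-9, 157 bp away, and not of hxk-2, 260 bp away. Together the members and these other steps gave 1 of 19 genes, or 5.26%, against 8.51% of all genes. The members' highest pooled signals, 24.1 to 50.8, overlapped the range of these genes. Apart from hxk-2, these had 71.7 at ipgm-1, 56.2 at hxk-3, 55.1 at gpi-1, 46.1 at ldh-1 and 33.8 at pfk-1.1, and no pooled promoter summit at hxk-1, pfk-1.2 or tpi-1.

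The other lists had counts from 0 to 9. The glycolytic members had 0 of 10 genes with an IDR promoter summit, against 9 of 24 (37.5%, 21.2% to 57.3%) for the tricarboxylic acid and glyoxylate cycles and 2 of 4 (50%, 15% to 85%) for pyruvate dehydrogenase. Trehalose and glycogen genes gave 3 of 12 (25%, 8.89% to 53.2%). Gluconeogenesis and the pentose phosphate pathway gave 0 of 5 each (0% to 43.4%). With the other glycolytic steps added, the 59 genes of all 6 lists gave 15, or 25.4%, and for 12 of the 15 the gene's own 5′ end was nearest to the summit. The Wilson interval of the members overlapped that of each list. In the pooled list 5 of 10 members had a promoter summit, against 23 of 24 tricarboxylic acid and glyoxylate genes and 39.2% of all genes. In both replicate lists it was 6 of 10 members, against 22 of 24 tricarboxylic acid and glyoxylate genes and 28.6% of all genes. In the pooled list and in both replicate lists the members' shares were thus below those of the tricarboxylic acid list but not below those of all genes. With replicate summits required to lie within 100 bp of each other, it was 1 of 10 members, below the 18.9% of all genes. Their IDR share, 0 of 10, was below the 8.51% of all genes, which lies inside the members' Wilson interval. No test of these differences was made, and the lists were chosen with earlier results of these data known.

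**Figure D3:**
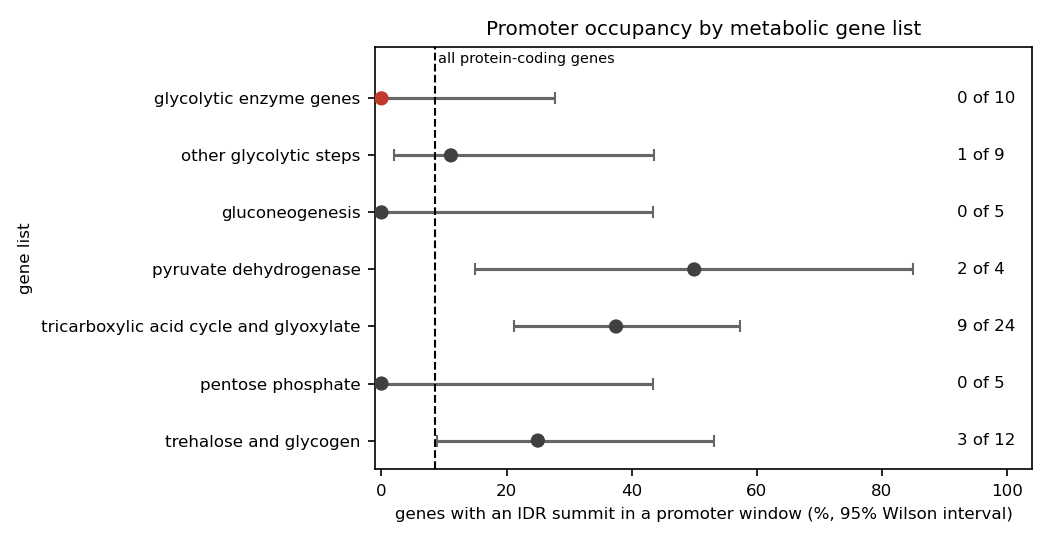
Share of genes with an IDR summit in a promoter window (horizontal axis, percent) for the glycolytic enzyme genes, at the top, and 6 other metabolic gene lists. Points are shares, bars are 95% Wilson intervals and the dashed line is 8.51%, the share of all protein-coding genes; the members stand at 0 of 10 and the tricarboxylic acid list at 9 of 24.

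The tricarboxylic acid genes with an IDR promoter summit spanned several steps of the cycle. Mitochondrial aconitase (aco-2) had a summit with a signal of 103, to which the 5′ end of the elongation factor gene eef-1B.1 was nearer, and it had no counterpart within 100 bp in replicate 2. The subunits of NAD-dependent isocitrate dehydrogenase followed, with signals of 186 at idhg-1, 95.2 at idha-1 and 86.9 at idhb-1. The oxoglutarate dehydrogenase component dlst-1 had a signal of 180.1. The succinyl-CoA ligase genes sucl-1 and suca-1 had 128 and 102.5, and the succinate dehydrogenase genes mev-1 and sdha-1 had 137 and 103. Ranks in replicates 2 and 3 were far apart at suca-1 (338 and 4673), idha-1 (593 and 3401) and idhb-1 (3321 and 546). They were 900 and 1988 at sdha-1, 790 and 388 at mev-1 and 1009 and 448 at sucl-1. At dlst-1 the ranks were 227 and 394, and at idhg-1 they were 255 and 232. The sdha-1 summit lay within 500 bp of a snoRNA gene, D2021.6. For pyruvate dehydrogenase, dld-1 had a signal of 197 and ranks 257 and 163 in replicates 2 and 3. The pdhb-1 summit had a signal of 101 and ranks 941 and 1412, with the 5′ end of dyf-3 nearer. The trehalase gene tre-1 had the highest signal of these lists, 321, at rank 44 in replicate 2 and rank 33 in replicate 3. The trehalose phosphatase gene gob-1 had 143.5, with ranks 216 and 1305 in replicates 2 and 3. The glycogen debranching enzyme gene agl-1 had 125, with ranks 636 and 871. Every one of these signals exceeded the 50.8 of pyk-1, as the IDR list's lowest signal of 77.9 requires.

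**Figure D4:**
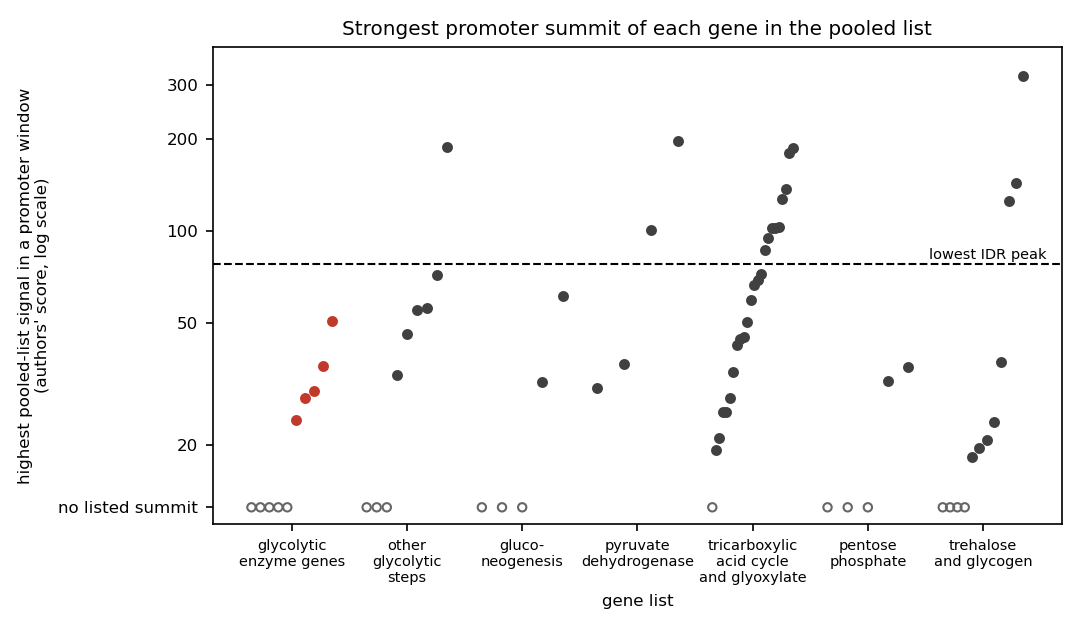
Highest pooled-list signal in a promoter window for each gene (vertical axis, authors' score on a log scale), with the glycolytic enzyme genes in red at the left and the other metabolic lists beside them; open circles are genes with no listed summit. The 5 members with a summit lie between 24.1 and 50.8, below the dashed line at 77.9, the lowest IDR peak.

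The base content of the glycolytic promoters is given for comparison. In the stretch from 250 bases before to 50 after the outermost 5′ end, the median GC content of the members was 35.3%, against 35.3% for the 1700 genes with an IDR promoter summit and 34.3% for all genes. Single members ran from 27.3% at aldo-2 to 50% at aldo-1. The 15 other pathway genes with an IDR summit had a median of 40.3%, against 35.0% for the 44 without.

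Short motifs were counted in the same stretch on both strands, as a description only. The hypoxia response core ACGTG occurred in 3 of 10 members (pgk-1, enol-1 and aldo-1), against 25.6% of genes with an IDR promoter summit and 27.6% of all genes. The E-box CACGTG, which contains it, occurred in none, against 4.94% of IDR genes and 5.83% of all genes. TATAAA occurred in 2 of 10 (gpd-3 and pyk-1), against 31.3% and 38.0%. GAGAGA occurred in 3 of 10 (gpd-2, pgk-1 and aldo-1), against 27.6% and 21.8%. A CAG within 2 bases of the outermost annotated 5′ end, examined after the sequences were seen, was found in 8 of 10 members, all but enol-1 and aldo-2, against 48.6% of IDR genes and 32.1% of all genes. Introns end in AG, and in C. elegans the spliced leader is joined to many messages at such a site, so an annotated 5′ end there can be a splice site downstream of the place where transcription starts. Distances from these ends then do not measure distances from transcription starts, which were not mapped here.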

How the data were processed

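The deposited ce11 lists of 1 group, in 2 biological replicates, were used: 1 per replicate, 1 from pooled reads and the IDR list. Per the file descriptions, peaks were called against 2 control alignments. The sources used here do not state the caller, the aligner, the read length or the IDR threshold. The authors' signal in these deposited lists is a score of unknown scale. It was used for ranks, medians and comparisons within 1 list, and between the IDR list and the pooled list that holds its peaks. The lists also give the authors' −log10 q-value. The ce10 lists were not used here. From these, summits (peak start plus offset) were placed against Ensembl release 115 genes and the RefSeq sequence of the same assembly. The 10 members, the gene lists and the windows were chosen with earlier results of these data known. All members were named, with their flanking genes, the gene nearest to each member summit, F13C5.2, and every other pathway gene with an IDR promoter summit; genes at the nearest IDR summits and other glycolytic genes without one were named after their values were seen. 1 listed gene, ugp-1, was not matched. Identities are from global alignments. Intervals are 95% Wilson intervals and cover counting error only. The window assignment was tested on simulated data. Alternatives were other windows, lists and replicates. The software was Biopython 1.88, matplotlib 3.10.9, scipy 1.17.1, pandas 2.3.3 and numpy 2.4.6 under Python 3.11.15.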

Additional observations from a re-analysis of the deposited data

How the results depend on the processing

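The count of glycolytic genes with an IDR promoter summit was 0 in 8 of the 9 alternatives tried and 2 with the window of 2000 bp upstream to 500 bp downstream, where it took in the summits near mai-1 and daf-19. These 8 include the top 1850 peaks of either replicate alone. The 15 other pathway genes became 9 when only the upper 50% of IDR peaks by signal were kept and 23 with the top of the pooled list at 2 times the length of the IDR list, and lay between 13 and 16 when either replicate was left out. The share of all protein-coding genes, 8.51%, became 4.46% and 14.2% under the same 2 lists and lay between 7.36% and 8.9% with either replicate left out. The 6 glycolytic genes with a summit in both replicate lists (28.6% of all genes) became 0 with the top 1850 peaks of each replicate. They became 2 with a window of 500 bp upstream to 100 bp downstream. The count was 8 with the window of 2000 bp upstream to 500 bp downstream and 5 with only the outermost 5′ end. The share of all genes was not computed for these 4 settings, so the changes cannot be read as particular to the members. It became 1 (18.9% of all genes) when the summits had to lie within 100 bp, a rule chosen after seeing the data. Of 10 alternatives for the offsets and ranks of single genes, 1 moved: the enol-1 offset was -883 bp in place of -265 bp with only the outermost 5′ end. Shorter lists and narrower windows count fewer summits by construction. No paired analysis was possible because the series has 1 group.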
